A study of Mus musculus with 12 samples.

Results

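The interferon response and MHC class I genes examined here were 47 genes listed by symbol, and each was found through the probe sets to which the array annotation gives exactly that 1 symbol. Of these 47 genes, 44 had such a probe set, among 15964 genes on the arrays with one, and H2-T23, Irf2 and Oas1a had none. The 44 genes were covered by 76 probe sets, and where a gene had several, as 22 did, it was taken by the probe set with the highest mean over the 4 populations and the others served as a check.

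The arrays profiled 4 populations of MIN6, a mouse pancreatic beta cell line from an insulinoma of a mouse carrying an SV40 T antigen transgene. Parental cells were taken at low passage, 17 to 20 (Pr-LP), and at high passage, 35 to 40 (Pr-HP). Clone 4, a subclone, was C4-LP at low passage, again 17 to 20, while C4-HP had reached 40 to 50. All 4 populations were grown in the same medium with 25 mM glucose and the labels name no interferon treatment. Both clone 4 populations and Pr-LP are called the glucose-responsive populations, and the study set them against Pr-HP, in which insulin secretion in response to glucose had been lost. Each population was measured once on each of 3 chips (A, B and C), so 12 arrays gave 1 value per probe set and population. The responsive populations differ in line and passage and are not replicates of 1 condition, and clone 4 is 1 subclone, so a difference that involves it may belong to that clone.

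Type I and type II interferons bind cell surface receptors whose kinases, Jak1 and Tyk2 among them, phosphorylate STAT proteins. STAT complexes, with Irf9 in the type I pathway, enter the nucleus and switch on many genes through the interferon-stimulated response element (ISRE) or the gamma-activated site (GAS). The products block viral replication, feed back on the receptor, and load peptides onto MHC class I molecules, by which beta cells are seen by cytotoxic T cells in autoimmune diabetes.

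Promoters are shown for the members on which the results turn and for Isg15, a classical interferon-induced gene, for comparison. Windows of 300 bases, from 250 before to 50 after the start, were matched for 38 of the 44 genes in a RefSeq table (GRCm38.p6). Windows of Usp18, Ly6e, Mx1, Mx2, Tap2 and Iigp1 were not analysed here. The 250 bases before the start are printed 5′ to 3′ on the gene's own strand, with capitals for matches to the ISRE core GAAANNGAA or to the same letters with the longer run on the other side of the gap, GAANNGAAA, on either strand. Where matches overlap, 1 run of capitals covers them. The windows of Trim12c, H2-K1, H2-D1 and Isg15, and the letters GAANNGAAA, were chosen after values or windows had been seen.
B2m, chr2:122147437-122147686, plus strand: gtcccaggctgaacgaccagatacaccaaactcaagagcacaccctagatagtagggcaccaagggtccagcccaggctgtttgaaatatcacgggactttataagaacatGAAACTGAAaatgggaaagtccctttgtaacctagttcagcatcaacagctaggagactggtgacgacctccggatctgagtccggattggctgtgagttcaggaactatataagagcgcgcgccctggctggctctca
H2-K1, chr17:34000334-34000583, minus strand: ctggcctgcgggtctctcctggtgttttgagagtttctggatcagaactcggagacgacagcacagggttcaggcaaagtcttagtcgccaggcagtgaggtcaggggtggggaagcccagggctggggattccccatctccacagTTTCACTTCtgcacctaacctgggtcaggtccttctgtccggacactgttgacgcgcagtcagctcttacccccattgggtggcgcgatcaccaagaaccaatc
H2-D1, chr17:35262844-35263093, plus strand: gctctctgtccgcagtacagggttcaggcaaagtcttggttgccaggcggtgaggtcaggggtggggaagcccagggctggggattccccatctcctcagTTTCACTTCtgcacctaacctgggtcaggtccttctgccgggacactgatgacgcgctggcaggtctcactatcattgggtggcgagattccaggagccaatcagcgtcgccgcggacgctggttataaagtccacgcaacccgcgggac
Trim12c, chr7:104353350-104353599, minus strand: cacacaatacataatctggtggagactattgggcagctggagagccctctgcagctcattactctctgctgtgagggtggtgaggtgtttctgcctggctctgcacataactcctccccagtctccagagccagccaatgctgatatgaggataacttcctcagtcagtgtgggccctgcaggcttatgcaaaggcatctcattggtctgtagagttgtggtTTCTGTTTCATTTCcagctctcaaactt
Isg15, chr4:156200819-156201068, minus strand: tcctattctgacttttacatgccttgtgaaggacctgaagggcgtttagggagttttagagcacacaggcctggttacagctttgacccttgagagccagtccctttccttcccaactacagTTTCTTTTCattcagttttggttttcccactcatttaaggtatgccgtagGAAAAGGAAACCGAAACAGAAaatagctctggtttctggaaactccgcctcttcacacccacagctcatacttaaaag

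The ISRE core was present in the 300-base window of 16 of the 38 genes (42.1%), against 9.76% of 27025 genes with a window. The GAS letters TTCNNNGAA were present in 12 of 38 (31.6%), against 9.55%. By role, the ISRE core was in the windows of 3 of 3 genes of the ISG15 system and feedback, 3 of 3 interferon-inducible GTPases and 8 of 13 antiviral genes, in 1 of 5 transcription factors (Stat2), 1 of 8 MHC class I genes (B2m) and 0 of 6 receptor and kinase genes. The letters GAANNGAAA were present in 10 of 38 genes, H2-K1 and H2-D1 among them, against 8.68% of all genes. The printed H2-K1 and H2-D1 stretches had 177 identical bases in 203 aligned (87.2%), and the run TTTCACTTC stood in both. A match describes the letters of a window and is not a binding site shown to be in use, and some of these motifs overlap each other.

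**Figure D1:**
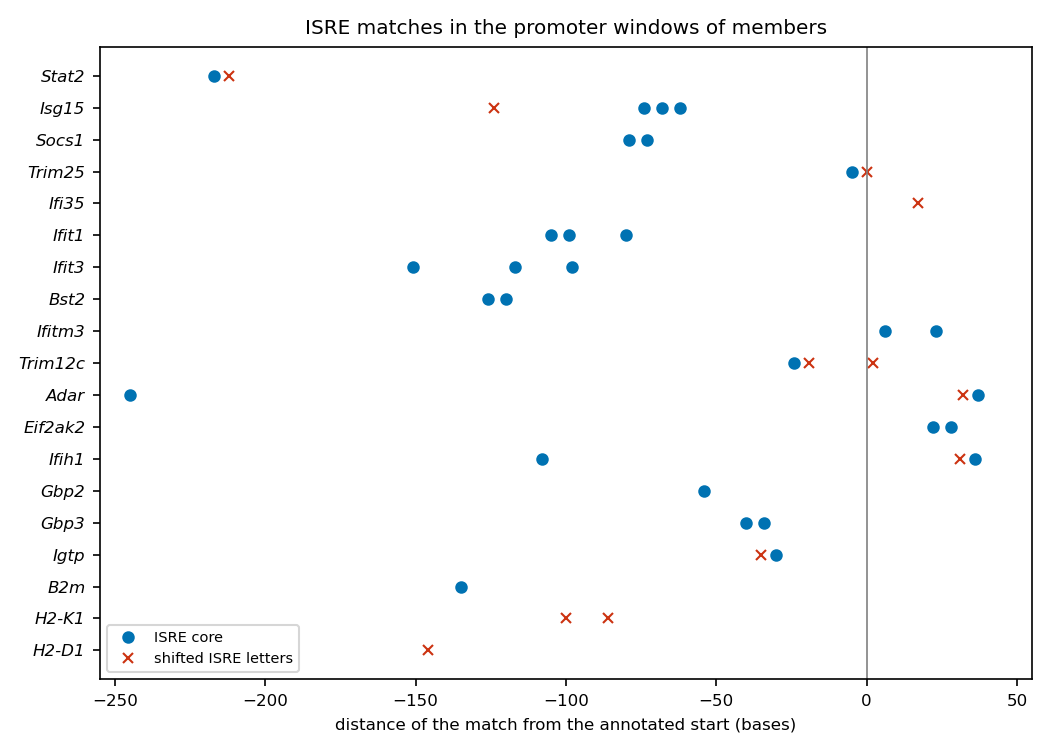
Positions of ISRE core matches (circles) and of the shifted ISRE letters (crosses) in the promoter windows of members, as the distance of the middle of the match from the annotated start in bases, 1 row per gene. The ISRE core matches of Isg15, Ifit1, Ifit3 and Bst2 lay before the start, and the pair of H2-K1 crosses is 1 site seen in 2 overlapping windows.

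Values are the deposited intensities, in the arrays' own units. Levels of different probe sets were set beside each other only to choose the probe set of a gene and to sum marker lists. That choice also ran across the chips, whose scales differ. Differences are in log2 units after values under the 20th percentile of a chip (67.3 on chip A, 58.6 on chip B, 29.1 on chip C) were raised to it, called the floor here. A probe set was tested if at least 1 of its 4 arrays exceeded the chip's 40th percentile, and 31 of the 44 genes passed. The other 13 were Ifit1, Ifit2, Ifit3, Mx1, Mx2, Gbp2, Gbp3, Ifitm1, Psmb8, Ifnar2, Ifngr1, Igtp and Iigp1. All 4 values lay under the floor for Ifit1, Ifit3, Mx1, Mx2 and Ifngr1, which are 5 of 44 genes (11.4%), against 9.75% of all genes with a probe set. Ifit1, Ifit3, Mx1 and Mx2, classical interferon-induced antiviral genes, thus read under the floor in every population.

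Array medians on a chip differed little, between 213.7 and 215.5 units on chip A. The 3′ to 5′ signal ratio of the Gapdh control, a sign of RNA integrity, was 0.867 in Pr-HP and 0.968 to 1.05 in the responsive populations on chip A, and the part of this in the results was not tested. Of 8 beta cell markers, 5 had a probe set and all 5 passed the filter, with Ins2 at 14771 to 15526 units and Iapp at 7444 to 9641 units in the 4 populations. Of 9 macrophage markers with a probe set, Cd68 was 1785 units in Pr-HP and 177 to 210 in the responsive populations (log2 difference -3.20). Ptprc and Lyz2 were under the floor in all 4 populations. Itgam, Adgre1, Csf1r and Fcgr3 read 74.8 to 108 units, above the floor of 67.3 in all 4 populations, and did not pass the filter. The summed level of the list was 1558 to 1659 units in the responsive populations and 3149 in Pr-HP, and without Cd68 it was 1349 to 1483 and 1364. Cd14 and Mpeg1, the other tested markers of the list, read 634 to 692 and 278 to 327 units, with log2 differences of 0.04 and 0.08. The part of Cd68 in the results was not tested. Lymphocyte markers summed to 1450 to 1478 units in the responsive populations and to 1406 in Pr-HP.

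The first question was which interferon and MHC class I genes differ between the responsive populations and Pr-HP, which had lost the glucose response. Pr-HP was also the only high-passage parental population, so that loss cannot be told apart from its line and passage here. Usp18 and Ly6e were higher in each of the 3 responsive populations than in Pr-HP, by 2.71 and 4.41 times in the mean. The study already listed both probe sets as higher in these cells. Its printed intensities differ from the deposited ones used here, and its fold changes are larger. No other tested member differed 2-fold in the mean of log2 values. The ratio of arithmetic means of Trim12c was also large, 3.04, from C4-HP alone. Neither Usp18 nor Ly6e passed the test after adjustment. The receptors, kinases, transcription factors and MHC class I genes were within 2-fold between the groups.

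Usp18, the protease that removes Isg15 from its targets and damps signalling at the type I receptor, was 80.7 units in Pr-HP, against 228 in Pr-LP, 258 in C4-HP and 171 in C4-LP. Pr-HP was the lowest of the 4, and the lowest responsive population was above it by 2.12 times. The log2 difference was 1.42 (SE 0.27, limma adjusted p = 0.298; 3 responsive arrays against 1 array of Pr-HP). The Pr-HP value stood just above the floor of 67.3 units, and with the floor at the 40th percentile the log2 difference was 0.50.

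Ly6e, a membrane-anchored protein of the Ly6 family with roles in viral entry, was 718 units in Pr-HP, against 3147 in Pr-LP, 2310 in C4-HP and 4042 in C4-LP. The lowest responsive value was 3.22 times the Pr-HP value, and C4-LP was the highest. The log2 difference was 2.10 (SE 0.35, limma adjusted p = 0.257), and ranked 20 from the top among 12267 genes. The other probe sets of Ly6e did not show it: one read 236, 262, 243 and 266 units and the other 187, 188, 198 and 174, in the order Pr-LP, C4-LP, C4-HP and Pr-HP. The probe set with the difference carries the suffix for probes shared with related transcripts, so its signal may include other genes, and the mean of all 3 probe sets gave a log2 difference of 0.71.

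**Figure D2:**
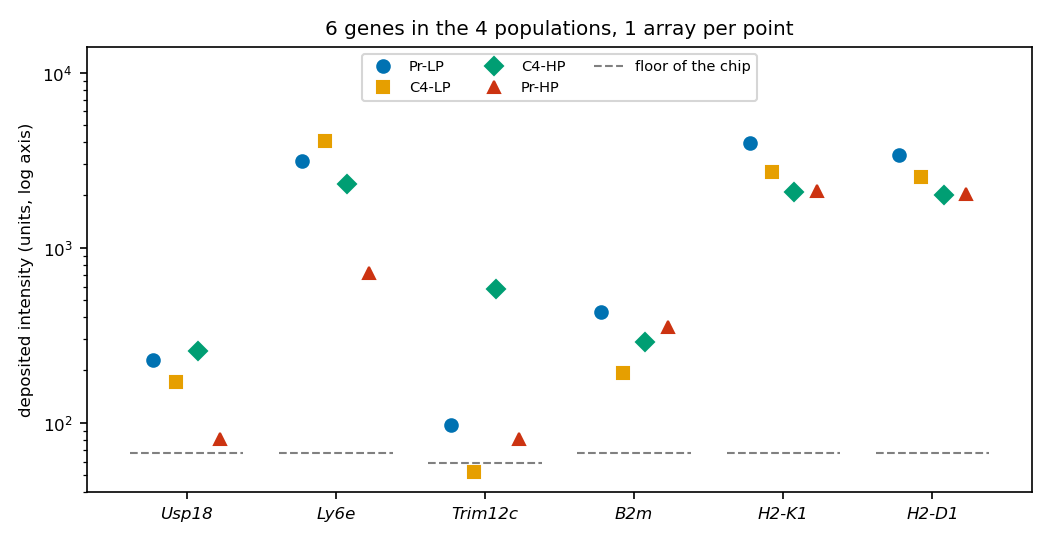
Deposited intensities (log axis, units) of 6 genes in the 4 populations, 1 array per point, with the dashed line at the floor of the chip. Pr-HP (triangles) is the lowest point for Usp18 and Ly6e, C4-HP (diamonds) stands alone for Trim12c at 584 units, and Pr-LP (circles) is the highest for B2m, H2-K1 and H2-D1.

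**Figure D3:**
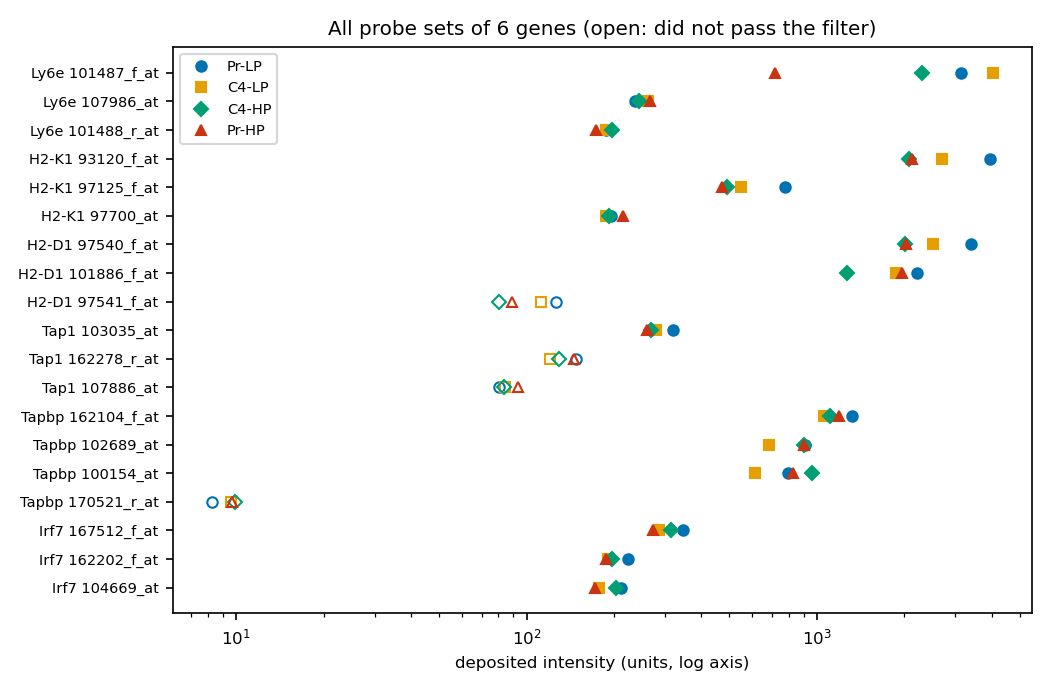
Deposited intensities (log axis, units) of every single-symbol probe set of 6 genes in the 4 populations, with open symbols for probe sets that did not pass the filter. Of 3 Ly6e probe sets, 1 separates Pr-HP at 718 units from the responsive populations.

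Across the 31 tested members, 2 (6.45%) were past 2-fold higher in the responsive populations, against 1.0% of all genes. Past 2-fold lower were 0, against 1.48%. The 2 were Usp18 and Ly6e, which the study had already listed as higher in the responsive cells from these arrays. Members were chosen with such results known, so the share of 6.45% is no test of the list. Past 2-fold means a log2 difference of at least 1 with the higher side at 100 units or more. limma called 0 of the 31 members at an adjusted p under 0.05, where it called 0.0814% of 23340 probe sets, and 2 members, Usp18 and Ly6e, had an unadjusted p under 0.05, against 9.79% of probe sets. A single array of Pr-HP stood for its group in this fit, and it was assumed to vary like the responsive arrays. The median log2 difference over the members was 0.01, against -0.00040 over all genes.

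Pr-HP lay below all 3 responsive populations for 6 of 31 members (19.4%), against 27.7% of genes, and these were Usp18, Ly6e, Irf7, Tap1, Ifnar1 and Trim25. It lay above all 3 for 7 (22.6%), against 29.6%, and these were Stat2, Irf3, Irf9, Oasl2, Tap2, Ifih1 and Socs1. Neither share exceeded the background, so the order of Pr-HP did not mark the list as a whole.

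The comparison of passages was made within each line. Pr-LP and Pr-HP also enter the group comparison above, so the values are not independent of it. From Pr-LP to Pr-HP, 0 members were past 2-fold higher (2.07% of genes) and 2 were past 2-fold lower, Usp18 and Ly6e (1.59% of genes). From C4-LP to C4-HP, 1 member was past 2-fold higher, Trim12c (0.359% of genes), and 0 were lower (0.995%). The probe sets of Usp18, Ly6e and Trim12c were already in the study's lists from these arrays, so these counts are no test of the members. These comparisons have 1 array on each side and no replicate check.

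Trim12c, a member of the Trim family with antiviral relatives, was 584 units in C4-HP, against 96.7 in Pr-LP, 80.4 in Pr-HP and 52.7 in C4-LP. C4-HP stood alone, and the C4-LP value was under the floor. Trim12c was at least 9.96 times higher in C4-HP than at the floor that stands for C4-LP, a log2 difference of 3.32. This was the largest rise among 12267 genes from C4-LP to C4-HP, and the largest fall was -3.82. C4-HP was 6.04 and 7.26 times above Pr-LP and Pr-HP. The difference of the responsive group from Pr-HP was 0.89 on the log2 scale (SE 1.41, limma adjusted p = 0.883), with C4-HP alone of the 3 raised. The annotation used here gives this probe set to Trim12c alone, while that in the study's tables adds Trim5, so its signal may come from either. Trim12a, a close relative, read 66.1 to 80.6 units on its own probe set. The Trim12c window shown above held an ISRE core match close to the start.

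Between the lines, C4-LP against Pr-LP had 0 members past 2-fold higher (1.84% of genes) and 1 past 2-fold lower, B2m (1.17%). C4-HP against Pr-HP had 3 past 2-fold higher, Usp18, Ly6e and Trim12c (1.13%), and 0 lower (1.74%). The populations Pr-LP and Pr-HP enter several of these comparisons, so the counts are not independent of each other. Usp18, Ly6e and Trim12c were also known from the study's lists of these arrays, so their count is no test of the members.

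**Figure D4:**
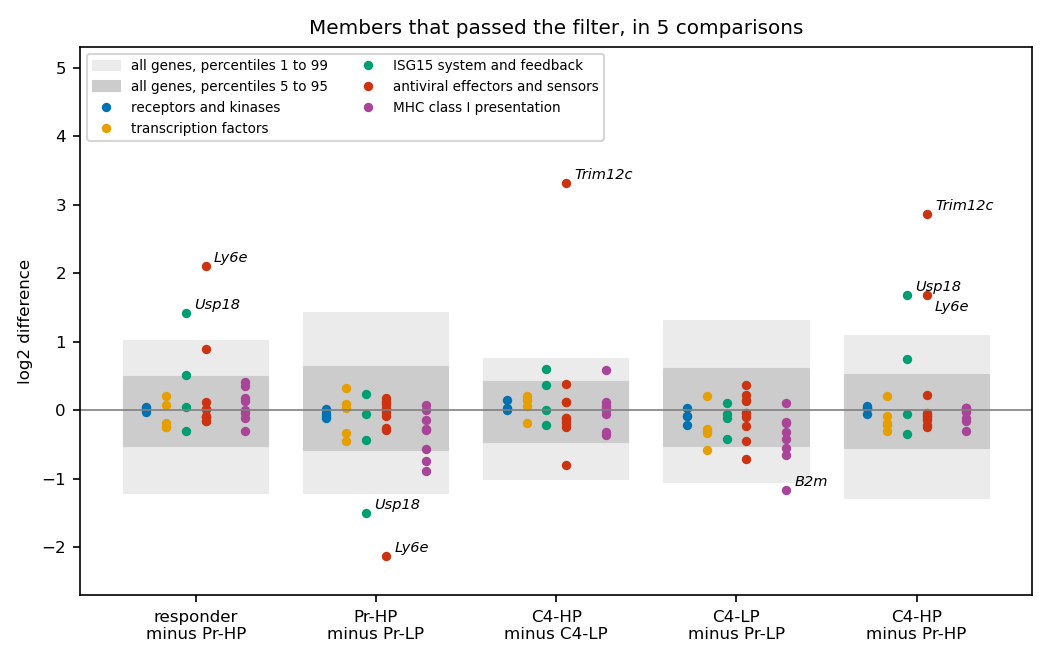
Log2 differences of the 31 members that passed the filter, coloured by role, in 5 comparisons (responder stands for the mean of the glucose-responsive populations), with grey bands for percentiles 5 to 95 and 1 to 99 of 12267 genes. Most members lie inside the bands, with Usp18, Ly6e, Trim12c and B2m named where they reach 2-fold.

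Of the MHC class I genes, most were lower in C4-LP than in Pr-LP. B2m, the invariant light chain, was 430 units in Pr-LP, 354 in Pr-HP, 288 in C4-HP and 192 in C4-LP, and its window above held 1 ISRE core match. Pr-LP was the highest and C4-LP the lowest, with a log2 difference of -1.16 between them (2.24 times). The responsive group was below Pr-HP for B2m, within the error (log2 difference -0.30, SE 0.49, limma adjusted p = 0.886).

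H2-K1, a classical class I heavy chain, was 3942 units in Pr-LP, 2693 in C4-LP, 2120 in Pr-HP and 2084 in C4-HP. H2-D1, the other classical heavy chain here, was 3393, 2520, 2030 and 2012 units in the same order. Both were highest in Pr-LP on these probe sets. The responsive group was above Pr-HP by 0.41 (SE 0.39, limma adjusted p = 0.801) for H2-K1 and by 0.35 (SE 0.33, limma adjusted p = 0.793) for H2-D1. Without Pr-LP these were 0.16 and 0.15, and Pr-LP alone against Pr-HP gave 0.89 and 0.74. A second probe set of H2-K1 was also highest in Pr-LP and next in C4-LP, at 775 and 549 units, with 492 in C4-HP and 473 in Pr-HP. The remaining one read 195, 187, 193 and 215 units, highest in Pr-HP. The other tested probe set of H2-D1 read 2208 units in Pr-LP, 1960 in Pr-HP, 1867 in C4-LP and 1266 in C4-HP, and there the responsive group was below Pr-HP (log2 difference -0.18). The mean of all probe sets gave 0.19 for H2-K1 and 0.13 for H2-D1. The first 2 probe sets of H2-K1 given here and all 3 of H2-D1 carry the suffix for shared probes, so their values cannot be assigned to 1 gene. The H2-K1 probe set without that suffix is the one highest in Pr-HP (log2 difference -0.17), and it did not show Pr-LP as the highest. A further 4 probe sets that name several class I genes were left out.

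Over the 8 tested MHC class I members, 7 were lower in C4-LP than in Pr-LP, against 51.6% of all genes, and the median log2 difference was -0.37, against -0.0089 over all genes. Pr-LP was the highest population for 6 of the 8, against 27.1% of all genes. H2-K1 and H2-D1 are counted separately here, though their probe sets may read the same transcripts. Over all 31 tested members, the 8 included, 23 (74.2%) were lower in C4-LP, with a median of -0.18, and 14 (45.2%) were highest in Pr-LP. The other roles varied. Lower in C4-LP were 6 of 10 antiviral genes, 3 of 4 of the ISG15 system, 4 of 5 transcription factors and 3 of 4 receptors and kinases. In the same order, 3, 0, 2 and 3 genes were highest in Pr-LP. The median of the antiviral genes was -0.04. Of 14 further MHC class I genes tested, 10 were lower in C4-LP, with a median of -0.10, and 7 were highest in Pr-LP. No test was made of the MHC class I genes against the rest. The 6 MHC class I members highest in Pr-LP, each by its probe set with the highest mean, were B2m, H2-K1, H2-D1, Tap1, Tapbp and Psmb9. Tap1 pumps peptides into the endoplasmic reticulum, Tapbp holds the peptide loading complex together, and Psmb9 is an immunoproteasome subunit. Psmb9 was 157 units in Pr-LP and at most 108 in the others. Tap1 was 318, 278, 267 and 261 units, and Tapbp was 1318, 1058, 1106 and 1193 units, in the order Pr-LP, C4-LP, C4-HP and Pr-HP. In that order, another tested Tapbp probe set read 911, 682, 903 and 900 units. A further tested Tapbp probe set read 793, 611, 963 and 831 units, highest in C4-HP. The other Tap1 probe sets did not pass the filter, and read 149, 120, 129 and 145 units, highest in Pr-LP, and 80.5, 84.2, 83.9 and 93.4 units, lowest in Pr-LP. Psmb10, another immunoproteasome subunit, was 453 to 487 units, lowest in Pr-LP. Of 15 tested probe sets of the MHC class I list, 13 were lower in C4-LP than in Pr-LP and 10 were highest in Pr-LP. The 15 include a further probe set of Psmb8, a gene not among the 8. It read 94.7, 107, 106 and 108 units in the order Pr-LP, C4-LP, C4-HP and Pr-HP, lowest in Pr-LP. The counts of 7 and 6 of the 8 genes were the same after quantile normalization and with the floor at the 40th percentile. The size of the median moved more, from -0.37 to -0.48 and to -0.26 in these settings. With the mean of all probe sets of a gene it was -0.28 over 9 genes. A difference of the clone and one of the array cannot be told apart here, with 1 array a side.

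For the other tested members, 25 beside the 6 given in full, the log2 differences between the responsive group and Pr-HP lay between -0.31 (Socs1) and 0.52 (Trim25), and the largest ratio between any 2 populations was 1.68, with a median of 1.18. Of the 31 tested members, 22 (71%) stayed within 1.5-fold over the 4 populations, against 78.6% of all genes. The examples with values among these 25 were picked after their values were seen.

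Among receptors and kinases, 4 of 6 genes were tested and all 4 were within a log2 difference of 0.04 of Pr-HP. Ifnar1, a type I receptor chain, was 967 to 1025 units, Ifngr2, a type II receptor chain, was 2019 to 2151, and Tyk2 was 640 to 662. Jak1 was 510 to 592 units. Ifnar2, which did not pass the filter, was 80.3 units in C4-HP and 137 to 151 in the others. Its other probe set read 71.2, 63.2, 57.0 and 67.1 units in the order Pr-LP, C4-LP, C4-HP and Pr-HP, around the floor.

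Among 5 tested transcription factors, the median log2 difference from Pr-HP was -0.19, against -0.00040 over all genes. Stat2, which forms the ISRE-binding complex with Irf9, was 1449, 1679, 1467 and 1815 units in the order Pr-LP, C4-LP, C4-HP and Pr-HP, and Pr-HP was the highest. Its other tested probe set read 204, 166, 177 and 183 units in that order, highest in Pr-LP, with a log2 difference of -0.01. Irf1, which also binds ISREs, was 613 units in Pr-LP and 408 to 449 in the others. Irf7, an amplifier of interferon production, was 346, 285, 315 and 274 units in the same order, and all 3 of its probe sets were highest in Pr-LP.

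In the ISG15 system and feedback, Isg15 was 204 to 238 units in the 4 populations with Pr-HP at 213, so the modifier itself did not share the pattern of Usp18, which removes it. Trim25, a ubiquitin ligase that acts on RIG-I, was 394, 380, 490 and 293 units in the order Pr-LP, C4-LP, C4-HP and Pr-HP (log2 difference 0.52, limma adjusted p = 0.524). Socs1, a feedback inhibitor of the JAK kinases, was highest in Pr-HP at 469 units, against 367 to 400.

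Of the antiviral genes, 10 of 16 with a probe set were tested. Adar, an RNA-editing enzyme, was 296 to 330 units, Eif2ak2, the kinase that stops translation on double-stranded RNA, was 246 to 287, and Samhd1, which degrades nucleotides, was 181 to 201. Bst2, the tether of budding virus, was 92.3 units in C4-LP and 103 to 127 in the others. None of the 4 interferon-inducible GTPases passed the filter, and Gbp2 was 60.2 to 68.3 units, around the floor.

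**Figure D5:**
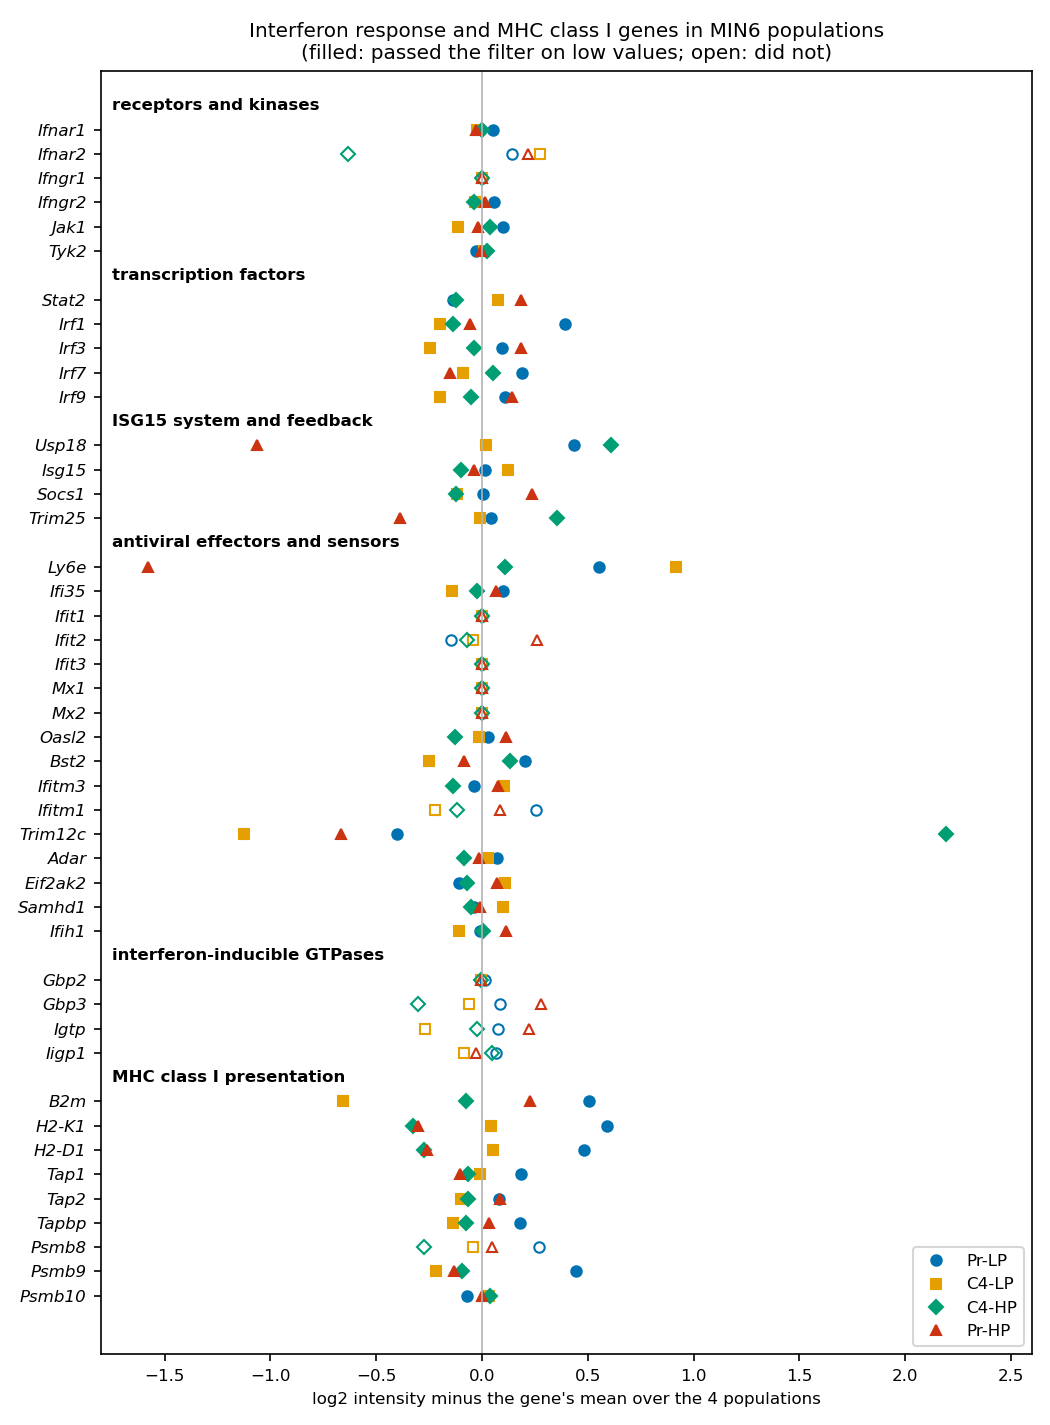
Log2 intensity of each of the 44 genes, floored, minus its mean over the 4 populations, by role, with 1 point per population and open symbols for the 13 genes that did not pass the filter. Pr-HP (triangles) stands far left for Usp18 and Ly6e, C4-HP (diamonds) far right for Trim12c, and most other genes cluster near 0.

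Further genes of the pathway were listed beside the members. Of 98 listed interferon genes, 48 were tested and 0 were past 2-fold between the responsive populations and Pr-HP. Among all genes, 1.0% were past 2-fold higher in the responsive populations and 1.48% lower. Of 31 further MHC class I genes, 14 were tested, and likewise 0 were past 2-fold in that comparison. At those shares lists of this size hold few such genes, so the counts of 0 are no result about the pathway. The median log2 differences of the 2 lists were -0.05 and 0.09, against -0.00040 over all genes.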

How the data were processed

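RNA of 4 MIN6 populations was hybridized once per population to each of 3 Affymetrix MG-U74v2 chips. The deposited intensities were linear probe set values made by the authors with GeneChip 5.1 software. The sources used here do not give the summary and scaling methods, and the near-equal medians on a chip show that the values had been scaled. No depth exists for arrays, and the number of arrays, 1 per population and chip, limits the precision.

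Symbols came from the platform annotation, and probe sets with 1 symbol were used. Values were floored at each chip's 20th percentile and taken to log2. The 3 responsive populations were set against Pr-HP with limma 3.58.1 in R 4.3.3, per chip, with 2 residual degrees of freedom, for probe sets with at least 1 array over the 40th percentile, and p was adjusted by Benjamini-Hochberg over the 3 chips. The responsive populations are not replicates of 1 condition, so p measures the spread between them. The other comparisons, with 1 array a side, were not tested. The fit was also run on simulated data in which the responsive arrays varied like replicates. The real populations are not replicates, so that run does not check this point. Members and lists were chosen with earlier results of these data known. Values were given for Usp18, Ly6e, B2m, H2-K1, H2-D1 and any member called by limma, or differing 2-fold between any 2 populations or between the groups with 100 units or more in 1 population. Alternatives were other floors, quantile normalization, no filter, each responsive population left out, the line as a block, the mean of a gene's probe sets and, added after seeing the data, arithmetic means. Protein comparisons were not made.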

Additional observations from a re-analysis of the deposited data

Results flagged for a closer look

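Usp18 moved in opposite directions with passage in the parental cells and in clone 4. The log2 difference of Pr-HP from Pr-LP was -1.50 and that of C4-HP from C4-LP was 0.59, with both past 1.5-fold. Each rests on 1 array a side, and the difference between them was not tested. Among 12267 genes, 172 (1.4%) showed opposite passage differences of that size, and 1 of 31 members did. This limit of size was set after the values had been seen.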

How the results depend on the processing

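One array a population and chip limits the precision of every value. The labels carry no replicate numbers, so no fit with a replicate block could be made, and only the line, parental or clone 4, could be used as a block. Of the main results recomputed under each alternative, 95 values stayed within the spread or the 1.5-fold margin and 4 did not. Many of the 95 are counts of 0 that had little room to move. The margin was also wide. The median of C4-LP against Pr-LP went from -0.18 to -0.09 with the floor at the 40th percentile and is among the 95. The count of members past 2-fold higher in the responsive populations, 2, and that past 2-fold higher in Pr-LP than Pr-HP, also 2, each fell to 1 with the floor at the 40th percentile, where Ly6e remained, and each to 1 with the mean of all probe sets, where Usp18 remained. The former count was 3 without Pr-LP, 3 without C4-LP and, with arithmetic means, added after seeing the data, 3. The latter was 3 after quantile normalization. limma called 0 members in every setting, with lowest adjusted p-values between 0.154 and 0.485. Leaving out 1 responsive population gave lowest adjusted p-values between 0.154 (without C4-LP) and 0.485 (without C4-HP). Over all probe sets limma called 19, and between 0 and 108 under the alternatives (0 with the floor at the 40th percentile, 108 with no filter). With the line as a block, which sets Pr-LP alone against Pr-HP, the log2 difference of B2m was 0.28, against -0.30, that of H2-K1 0.89, against 0.41, and that of H2-D1 0.74, against 0.35.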

Other observations

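Isg20, an exonuclease that degrades RNA, separated the lines. It was 245 units in Pr-LP and 256 in Pr-HP, against 601 in C4-LP and 608 in C4-HP, so both clone 4 populations were above both parental ones. Ifi30, a lysosomal thiol reductase of antigen processing, was 865, 305, 595 and 676 units in the order Pr-LP, C4-LP, C4-HP, Pr-HP. H2-Q2, a non-classical class I gene, was 1436, 403, 577 and 461 units in that order, highest in Pr-LP, and its probe set carries the suffix for shared probes. Pdia3, a chaperone of the peptide loading complex, was 838, 1621, 1207 and 1293 units in that order, lowest in Pr-LP. These genes were chosen after their values were seen and have no replicate check.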
